A study of Mus musculus with 32 samples.

Results

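Gp130 is the receptor chain that interleukin 6, leukemia inhibitory factor and oncostatin M share, and STAT3 is the transcription factor most associated with it. The genes described here are 3 ligands (Il6, Lif, Osm), 3 ligand-specific receptor chains (Il6ra, Lifr, Osmr), gp130 itself (Il6st), the kinase Jak2, Stat3, and the feedback inhibitor Socs3. They were taken by symbol from a table of RNA-seq read counts of mouse spinal cord. All 10 symbols were found, among 23420 genes in the table, and 9 passed the filter on low counts. Il6 did not pass.

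Binding of a ligand brings gp130 together with a partner chain, and Janus kinases bound to the receptors then phosphorylate STAT3, which moves to the nucleus and raises transcription of its targets, Socs3 among them. SOCS3 binds gp130 and the kinases and damps the signal. In injured spinal cord this pathway is known for its part in astrocyte reactivity and scar border formation, and in macrophages and microglia for the response to cytokines.

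The study followed cords of C57BL/6J mice aged 8 to 12 weeks after spinal cord injury. Injured cords carried the label Gsx1 at 3, 14 and 35 days (3, 3 and 4 libraries), Nkx6.1 at 3 and 35 days (3 libraries each) or Ctrl at 3, 14 and 35 days (3, 3 and 4 libraries), and sham cords were sampled at 3 and 35 days (3 libraries each). Both factors belong to the homeobox family and pattern neurons in the embryonic cord. The RNA came from the tissue around the lesion. The sham labels name no control treatment, there was no sham group at 14 days, and the sources used here do not give the injury method, the route by which a factor reached the cord, sex or batches. Separate animals are not stated for the libraries of a group, so p-values cover only the spread between samples, which may be technical.

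Total counts per library ran between 10.8 and 19.5 M reads counted in genes (median 14.6 M). Neuron genes (Snap25, Rbfox3, Syt1, Nefl, Nefm) and posterior Hox genes (Hoxa7, Hoxb8, Hoxc8, Hoxc9, Hoxa9) were detected in each of the 32 libraries, with sums of 1990 to 9442 CPM and 125 to 509 CPM. In 2 libraries, sham 3 days replicate 1 and Ctrl 35 days replicate 4, the X-inactivation transcript Xist exceeded 100 CPM while the Y-linked Ddx3y was also present (19.1 and 32.1 CPM). Xist also exceeded 100 CPM, with Ddx3y under 10 CPM, in sham 3 days replicate 2 and sham 35 days replicate 3. The same held for Ctrl 3 days replicate 1, Ctrl 35 days replicate 1 and Nkx6.1 35 days replicate 2. No Gsx1 library and no Nkx6.1 library at 3 days did so, and Xist was thus uneven between groups compared. The injury counts and several values of single genes are also given without the 2 libraries that held both transcripts. Levels are in CPM, read counts scaled to library size with TMM factors, as mean ± SD over libraries. Fold changes and p-values are from edgeR's quasi-likelihood test with Benjamini-Hochberg adjustment over 16314 genes, and a gene is said to have risen or fallen at an adjusted p under 0.05.

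Set per kilobase of exon, so that genes can be compared, mean levels over the 32 libraries differed widely. Il6st was highest at 18.9 CPM per kb, followed by Stat3 at 16.4, Jak2 at 12.1, Lifr at 10.6 and Socs3 at 7.04 CPM per kb. The ligand-specific chains Osmr and Il6ra stood at 2.69 and 1.78 CPM per kb. The ligands were lowest, with Osm at 0.584, Lif at 0.436 and Il6 at 0.0349 CPM per kb. Il6 was counted on 41 reads in all 32 libraries, and Stat3 on 74256.

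**Figure D1:**
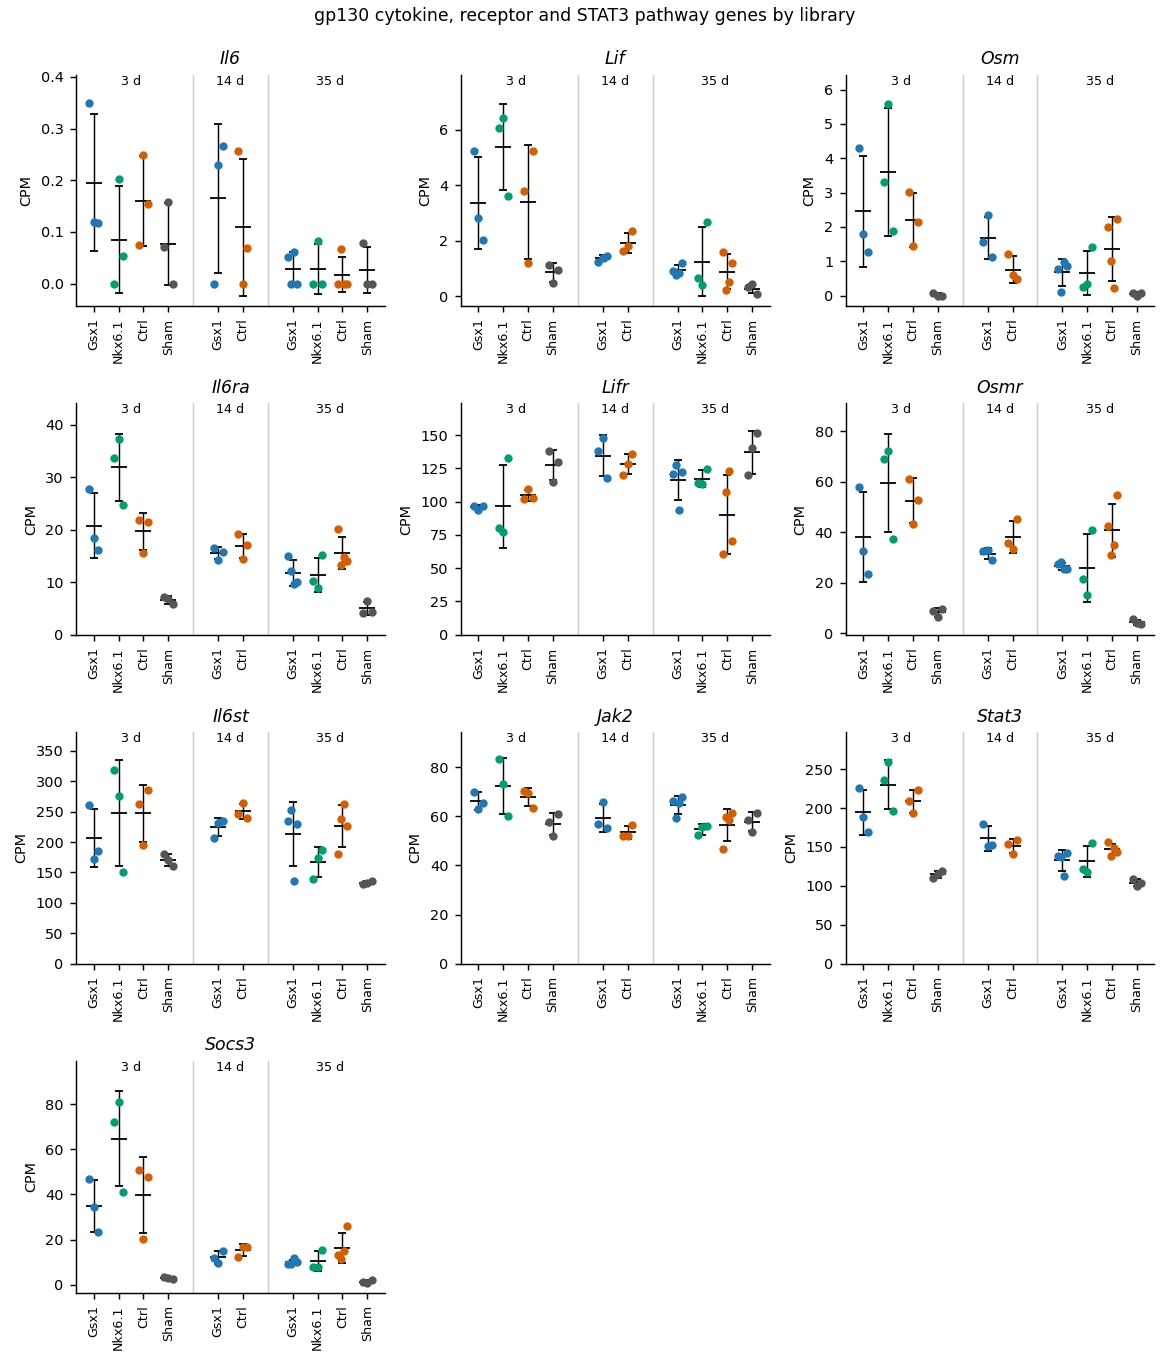
CPM of the 10 genes in each of the 32 libraries, by group and time (linear vertical axes, points are libraries, bars are mean ± SD; Gsx1, Nkx6.1 and Ctrl are injured cords). Socs3, Osmr, Il6ra and Osm in every injured library lay above every sham library. For Osm the lowest injured value (0.0931 CPM) and the highest sham value (0.0820 CPM) rest on 1 read each. Il6, Lif, Stat3, Il6st, Jak2 and Lifr overlapped between injured and sham cords.

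Injury changed these genes in a graded way: Socs3, Osm and Osmr had the largest rises, Il6ra and Lif intermediate ones, Stat3 and Il6st smaller ones, and Jak2 did not pass the test at either time. Of the 9 genes tested, 6 rose and 0 fell in injured control against sham cords at 3 days, and 6 rose and 1 (Lifr) fell at 35 days. Of all genes tested, 35.5% were called at 3 days (19.5% higher) and 36.8% at 35 days (21.3% higher, 15.5% lower). The median log2 fold change of the 9 genes was 1.56 at 3 days and 1.63 at 35 days, beside 0.0069 and 0.0389 over all genes tested. Osm and Lif passed the filter on low counts through their injured libraries, where they are high, so their calls are no support for the count. Both also lie above the medians of the 9 genes and raise them, so these medians are descriptions only. Without the 2 libraries that held both Xist and Ddx3y, 6 genes were called at 3 days and 6 at 35 days.

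Among the ligands, Osm, a cytokine made by macrophages and neutrophils, had 3.02, 1.43 and 2.16 CPM in injured control cords at 3 days, against 0.071, 0 and 0 CPM in sham cords. In reads this was 91 in the injured control libraries and 1 in the sham libraries, a ratio of 88.9 after scaling with an exact 95% counting interval of 15.6 to 3551, which covers counting error only. At 35 days Osm had 1.99, 1.01, 0.221 and 2.23 CPM in injured control cords against 0.0783, 0 and 0.0820 CPM in sham cords. The ratio was 24.7 on 73 and 2 reads, with a counting interval of 6.59 to 208. The groups did not overlap at either time, and Osm rose at both (edgeR adjusted p = 0.000177 at 3 days and 0.00182 at 35 days).

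Lif encodes leukemia inhibitory factor, which signals through LIFR and gp130. It had 3.78, 1.19 and 5.23 CPM in injured control cords at 3 days and 1.14, 0.476 and 0.957 CPM in sham cords, groups that did not overlap, with injured control replicate 2 just above the highest sham library. Lif rose at 3 days (log2 fold change 1.96 ± 0.62 SE, adjusted p = 0.0153), a call that was lost without sham replicate 2 (adjusted p = 0.0688) or without injured control replicate 3 (adjusted p = 0.0861). At 35 days it had 1.59, 0.202, 0.516 and 1.19 CPM in injured control cords and 0.313, 0.424 and 0.0820 CPM in sham cords. These groups overlapped, and the difference did not pass the test (log2 fold change 1.64 ± 0.73, adjusted p = 0.0799), though it did without injured control replicate 2 (adjusted p = 0.0261).

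Il6, the founding cytokine of the family, was close to undetected in bulk cord. Single libraries held 0 to 6 reads, and 13 of the 32 held 0. At 3 days the injured control libraries held 1, 4 and 2 reads and the sham libraries 1, 2 and 0, a ratio of 2.28 with a counting interval of 0.521 to 13.7. At 35 days the ratio was 0.676 (interval 0.00861 to 53.1). A difference in Il6 was not detectable at this depth.

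Of the ligand-specific receptor chains, Osmr, which pairs with gp130 to bind oncostatin M, had the largest rise. It had 61.2, 43.4 and 52.8 CPM in injured control cords at 3 days against 9.02, 6.35 and 9.50 CPM in sham cords, and 42.5, 31.0, 34.9 and 54.7 CPM against 5.63, 3.90 and 3.53 CPM at 35 days. The lowest of the 26 injured libraries had 15.1 CPM and the highest of the 6 sham libraries 9.50 CPM. Osmr was 6.30-fold higher at 3 days (log2 fold change 2.66 ± 0.33, adjusted p = 1.76e-06) and 9.32-fold higher at 35 days (3.22 ± 0.34, adjusted p = 1.94e-07).

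Il6ra, the chain that binds interleukin 6, had 21.9, 15.6 and 21.6 CPM in injured control cords at 3 days and 7.25, 6.90 and 5.81 CPM in sham cords. At 35 days it had 20.1, 13.3, 14.8 and 14.1 CPM in injured control cords and 4.15, 6.45 and 4.43 CPM in sham cords. The groups were separate at both times, with a log2 fold change of 1.56 ± 0.24 at 3 days (adjusted p = 2.19e-05) and 1.63 ± 0.24 at 35 days (adjusted p = 1.06e-05). The change of this effect between the times was 0.07 ± 0.33 (adjusted p = 0.976).

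Lifr, the partner of gp130 for leukemia inhibitory factor, was the gene of the set that fell. At 35 days it had 60.6, 107, 123 and 70.3 CPM in injured control cords and 120, 140 and 152 CPM in sham cords, with injured control replicate 3 above the lowest sham library. The log2 fold change was -0.60 ± 0.18 (adjusted p = 0.0120). The call was lost without the 2 libraries that held both Xist and Ddx3y (adjusted p = 0.0719), without sham replicate 3 (0.0704), without injured control replicate 1 (0.0518) or 4 (0.0570), and with a fit on the compared groups only (0.127). The low injured control replicates, 1 and 4, were the ones with the highest summed macrophage and microglia markers (1542 and 1784 CPM, against 847 and 951 CPM in replicates 2 and 3). The part of these markers in the Lifr values was not tested. At 3 days Lifr had 102, 109 and 103 CPM in injured control cords and 138, 115 and 129 CPM in sham cords, groups that did not overlap, with a log2 fold change of -0.28 ± 0.19 that did not pass the test (adjusted p = 0.264). A fit on the compared groups only called it (adjusted p = 0.0243).

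Osmr and Lifr lie near each other on chromosome 15 (Osmr at chr15:6813577-6874969 on the minus strand, Lifr at chr15:7090614-7197489 on the plus strand, GRCm38, GENCODE annotation), and their products are alternative partners of gp130. Their ratio within a library, per kilobase of exon, was chosen after their values were seen and is a description. It was 0.448 ± 0.091 in injured control cords at 3 days and 0.0575 ± 0.0081 in sham cords (SD, n = 3 each). At 35 days it was 0.456 ± 0.234 in injured control cords (n = 4) and 0.0291 ± 0.0112 in sham cords (n = 3). The groups did not overlap at either time. Lifr stayed the more abundant of the pair per kilobase in each library.

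**Figure D2:**
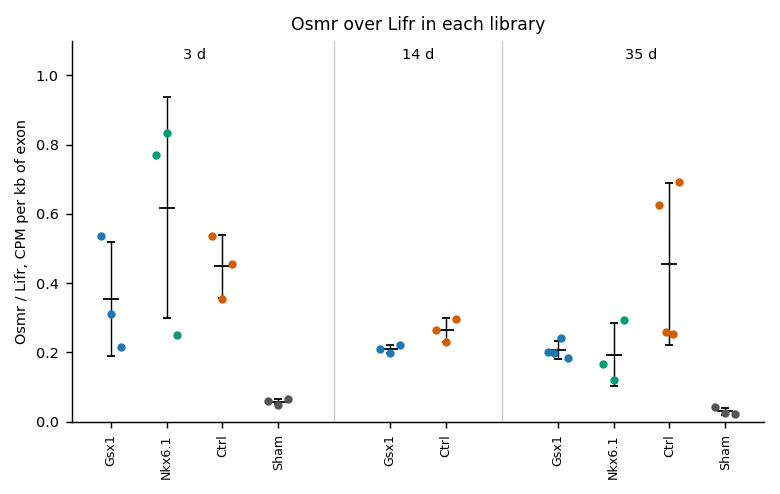
Ratio of Osmr to Lifr, each in CPM per kilobase of exon, in each of the 32 libraries by group and time (points are libraries, bars are mean ± SD). Sham libraries lay between 0.0207 and 0.0653, and injured libraries between 0.119 and 0.832.

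Il6st, gp130 itself, had 262, 195 and 285 CPM in injured control cords at 3 days and 181, 170 and 161 CPM in sham cords. The groups did not overlap, but the log2 fold change of 0.54 ± 0.22 did not pass the test (adjusted p = 0.0558). It did pass with DESeq2 (adjusted p = 0.0431), with upper quartile scaling (0.0481), with a fit on the compared groups only (0.00946) and without injured control replicate 2 (0.0276). At 35 days Il6st had 180, 238, 262 and 227 CPM in injured control cords and 131, 133 and 135 CPM in sham cords, and it rose 1.70-fold (log2 fold change 0.77 ± 0.21, adjusted p = 0.00613).

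Jak2, the Janus kinase of the set, had 70.4, 69.6 and 63.5 CPM in injured control cords at 3 days and 57.7, 51.9 and 60.8 CPM in sham cords. These groups were separate by a small margin, with a log2 fold change of 0.26 ± 0.11 that did not pass the test (adjusted p = 0.0649). It passed with DESeq2 (0.0485), on the compared groups only (0.0310) and without injured control replicate 3 (0.0459). At 35 days the groups overlapped, and the log2 fold change of -0.03 had a 95% interval of -0.24 to 0.17. Its sign turned with upper quartile scaling and without 2 single libraries.

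Stat3 rose at both times. It had 209, 194 and 224 CPM in injured control cords at 3 days against 110, 115 and 119 CPM in sham cords, a 1.82-fold rise (log2 fold change 0.86 ± 0.12, adjusted p = 6.62e-06). At 35 days it had 156, 139, 149 and 143 CPM in injured control cords against 109, 99.4 and 104 CPM in sham cords, a 1.41-fold rise (0.50 ± 0.11, adjusted p = 0.00161). Neither pair of groups overlapped. These are transcript levels, and the active, phosphorylated form of STAT3 was not measured.

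Socs3, the feedback inhibitor that STAT3 itself induces, had 51.0, 20.5 and 47.9 CPM in injured control cords at 3 days against 3.34, 2.94 and 2.39 CPM in sham cords. At 35 days it had 13.1, 11.5, 15.1 and 26.1 CPM in injured control cords against 1.41, 0.848 and 2.05 CPM in sham cords. No injured library of any group had under 7.90 CPM, and no sham library over 3.34 CPM. Socs3 was 13.7-fold higher at 3 days (log2 fold change 3.78 ± 0.39, adjusted p = 2.94e-07) and 11.4-fold higher at 35 days (3.51 ± 0.41, adjusted p = 7.07e-07).

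The Socs3 promoter is printed because Socs3 had the lowest adjusted p of the set at 3 days and is a well-known direct STAT3 target. STAT dimers bind palindromes of the form TTCNNNGAA, where N is any base. In the 250 bases before the RefSeq gene start (GRCm38.p6), 1 match was found, with its first base at position -154 from that start. The 165 bases shown are the stretch chr11:117969452-117969616 on the minus strand, upstream of all exons that GENCODE places in that window and inside an intron of its longest Socs3 transcript. Capitals mark the match.
Socs3: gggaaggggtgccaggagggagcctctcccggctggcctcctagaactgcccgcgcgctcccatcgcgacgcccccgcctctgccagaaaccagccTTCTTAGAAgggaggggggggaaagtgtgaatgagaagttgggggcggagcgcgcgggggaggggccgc
Windows of the same length were available for 9 of the 10 genes (10 windows, with 2 for Lifr), and that of Socs3 was the 1 window that held the motif. Because the motif reads the same on both strands, each match counts once. It occurred in 2306 of 32851 RefSeq windows (7.02%). The match describes these letters and was not tested as a binding site.

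**Figure D3:**
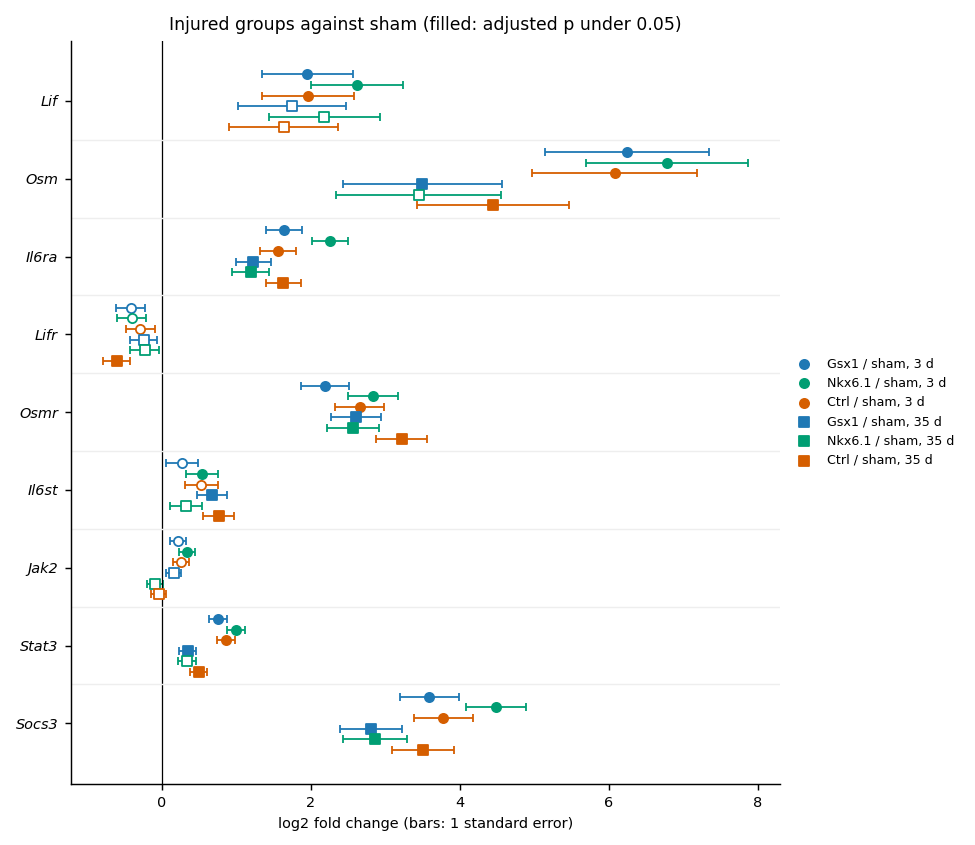
Log2 fold change (bars, 1 standard error) of the 9 genes tested, in Gsx1, Nkx6.1 and Ctrl injured cords against the same sham libraries at 3 days (circles) and 35 days (squares); filled symbols have an adjusted p under 0.05. Socs3, Osmr and Il6ra are filled in all 6 comparisons, and Lifr lies left of 0 in all 6. The fitted value of Osm depends on near-empty sham libraries and is no bound on its fold.

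Markers of other cells moved with these genes. Of the macrophage and microglia markers (Cd68, Lyz2, Aif1, Itgam, Cd14), 5 of 5 measured rose at both times, with a summed level of 747 to 1587 CPM in injured control cords at 3 days against 67.8 to 85.0 CPM in sham cords, and 847 to 1784 CPM against 37.4 to 54.2 CPM at 35 days. Reactive astrocyte markers rose at both times (5 of 5), with sums of 1769 to 2832 CPM in injured control cords and 197 to 212 CPM in sham cords at 3 days. Neutrophil markers rose for 1 of 5 at 3 days (104 to 165 CPM in injured control cords and 31.3 to 61.3 CPM in sham cords) and 0 of 5 at 35 days. Fibroblast markers rose for 5 of 5 at 3 days and 4 of 5 at 35 days, and neuron markers fell for 5 of 5 and 3 of 5, with sums of 3347 to 4912 CPM in injured control cords against 7931 to 8574 CPM in sham cords at 3 days. None of these markers was at 0 throughout a group compared. Their part in the results on Osm, Osmr, Il6ra, Stat3 and Socs3 was not tested. In bulk tissue, fewer cells of a type and less RNA per cell cannot be told apart.

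Other ligands and receptors of the gp130 family were measured from a list of 10, of which 8 passed the filter on low counts. At 3 days, 3 rose and 1 fell in injured control against sham cords. Of all genes tested, 19.5% were called higher and 16% lower. Calls of genes that passed the filter through their injured libraries, Ebi3 among them, are no support for the counts at either time. Clcf1, a cytokine that signals through the ciliary neurotrophic factor receptor, had means of 7.49 CPM in injured control cords and 0.783 CPM in sham cords (log2 fold change 3.25 ± 0.44). Ebi3, a subunit of interleukin 27, which passed the filter on low counts through its injured libraries, rose as well (1.76 ± 0.49), and Cntfr, the chain that binds ciliary neurotrophic factor, fell (-0.49 ± 0.15). The fall of Cntfr was no longer called without sham replicate 1, without injured control replicate 1, or without the 2 libraries that held both Xist and Ddx3y.

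At 35 days, 6 of the 8 rose and 0 fell, beside 21.3% higher and 15.5% lower of all genes tested. Ebi3 (log2 fold change 2.33 ± 0.47) and Clcf1 (1.93 ± 0.41) were again higher, and Ctf1, which encodes cardiotrophin 1, rose (1.58 ± 0.43). The receptor chains Il27ra (1.53 ± 0.53) and Il11ra1 (0.70 ± 0.20) rose too. The list's median log2 fold change was 0.87 at 3 days and 1.55 at 35 days. There were 5 rises at 35 days without the 2 libraries that held both Xist and Ddx3y.

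Among 21 other kinases, STATs and regulators of the pathway, 12 rose and 2 fell at 3 days. Of all genes tested, 19.5% were called higher and 16% lower. Ptpn6 encodes SHP-1, a phosphatase of blood cells, and had means of 51.6 CPM in injured control cords and 5.13 CPM in sham cords (log2 fold change 3.32 ± 0.37). Socs1, the inhibitor nearest to Socs3 in mode of action, rose (2.25 ± 0.57), as did Stat4 (2.02 ± 0.76, on 26 reads in injured control and 6 reads in sham libraries), Stat6 (1.67 ± 0.29) and Jak3 (1.56 ± 0.23). Stat4 passed the filter on low counts through its injured libraries, so its call is no support for the count at either time. Socs5 (-0.48 ± 0.13) and Socs7 (-0.24 ± 0.09) were the 2 that fell, of which 0 were still called without injured control replicate 1.

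At 35 days, 9 rose and 2 fell, beside 21.3% higher and 15.5% lower of all genes tested. The largest rises were those of Ptpn6 (log2 fold change 3.74 ± 0.38), Stat6 (2.44 ± 0.29), Stat4 (2.31 ± 0.75) and Jak3 (1.56 ± 0.22), followed by Stat5a (0.92 ± 0.23) and Socs6 (0.79 ± 0.14). Jak1 (-0.39 ± 0.13) and Socs5 (-0.39 ± 0.13) fell, and neither was called on the compared groups only, without sham replicate 1 or 3, without injured control replicate 4, or without the 2 libraries that held both Xist and Ddx3y. Without those 2 libraries 6 genes rose. The list's median log2 fold change was 0.63 at 3 days and 0.72 at 35 days.

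Genes reported as STAT3 targets rose in large part. Of 30 listed genes 29 were in the table and 27 were tested. In injured control against sham cords 24 rose and 0 fell at 3 days. At 35 days 21 rose and 0 fell. Of all genes tested, 19.5% were called higher at 3 days and 21.3% at 35 days. The median log2 fold change of the listed genes was 2.18 at 3 days and 1.79 at 35 days. Saa3 passed the filter on low counts through its injured libraries, so its call is no support for these counts. The list was chosen with earlier results of these data known, so counts and medians are descriptions. Vegfa and Bcl2l1 were not called at either time, and Fos was not called at 3 days (log2 fold change 0.70). Without the 2 libraries that held both Xist and Ddx3y, 24 rose at 3 days and 19 at 35 days. The list shares Vim, Lcn2, Serpina3n and Steap4 with the reactive astrocyte markers, and Gfap with the astrocyte markers, and many of its genes are known to answer to other pathways as well.

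Timp1, an inhibitor of matrix metalloproteinases, had means of 51.5 CPM in injured control cords and 1.52 CPM in sham cords at 3 days (log2 fold change 5.07 ± 0.58), and 19.2 CPM against 0.746 CPM at 35 days (4.69 ± 0.63). Vim, the intermediate filament protein vimentin, rose at both times (3.96 ± 0.40 at 3 days, 3.76 ± 0.39 at 35 days), as did Bcl3, a nuclear partner of NF-kappaB (3.76 ± 0.48 and 3.77 ± 0.51). Plaur, the urokinase receptor, rose at 3 days (3.73 ± 0.42), and Icam1, an adhesion molecule for leukocytes, had a log2 fold change of 4.42 ± 0.43 at 35 days. Steap4, a metalloreductase, rose at 3 days (4.02 ± 0.57) and at 35 days, where it was counted on 678 reads in injured control and 4 reads in sham libraries, a ratio of 115 with a counting interval of 44.5 to 422. Saa3, an acute-phase protein that passed the filter on low counts through its injured libraries, was counted on 1285 and 12 reads at 3 days (ratio 105, interval 59.7 to 203) and on 204 and 3 reads at 35 days (ratio 46.0, interval 15.5 to 225).

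**Figure D4:**
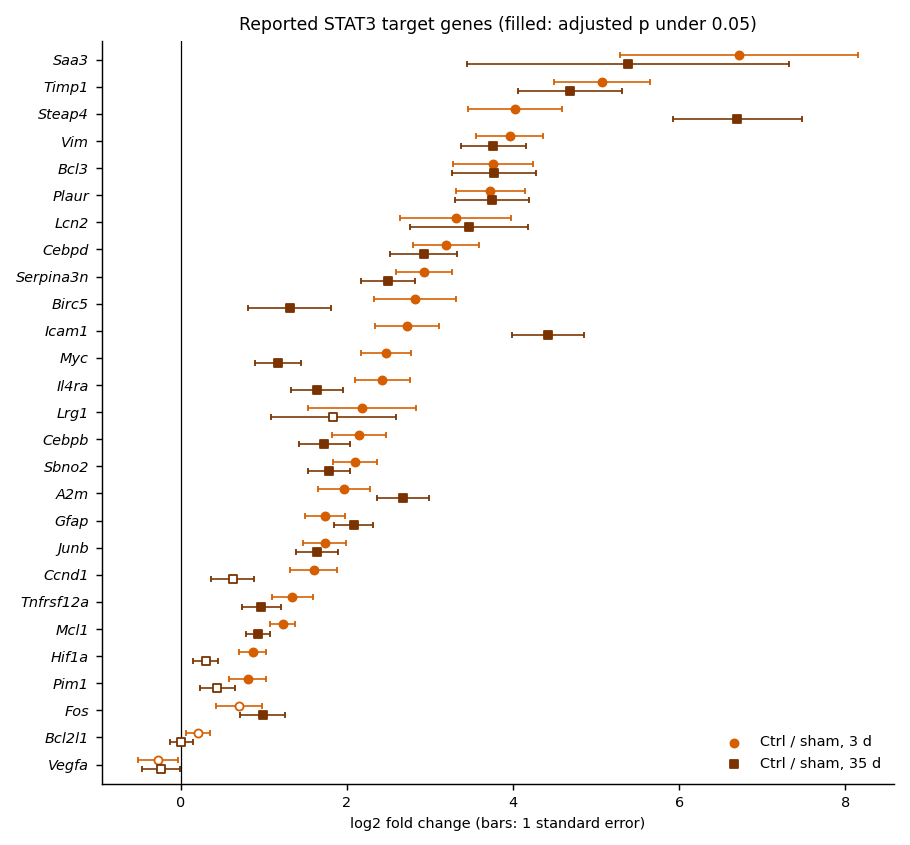
Log2 fold change (bars, 1 standard error) of the 27 tested genes of the list of reported STAT3 targets in injured control against sham cords at 3 days (circles) and 35 days (squares); filled symbols have an adjusted p under 0.05. 24 genes are filled at 3 days and 21 at 35 days, and the fitted values of Saa3 and of Steap4 at 35 days rest on sham libraries with few reads.

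Over time in injured control cords, Socs3 and Stat3 fell by 14 and by 35 days, and Lif was called only at 35 days. Sham means were also lower at 35 than at 3 days, though not called. They were 1.44 and 2.89 CPM for Socs3, 0.273 and 0.857 CPM for Lif, and 104 and 115 CPM for Stat3. The change of the injury effect between 3 and 35 days was called for 0 of 9 genes. For 14 against 3 days 2 of the 9 genes, Socs3 and Stat3, fell and 0 rose (3.06% of all genes called, 0.644% higher and 2.42% lower). Socs3 averaged 39.8 ± 16.8, 15.2 ± 2.6 and 16.5 ± 6.6 CPM at 3, 14 and 35 days, with a log2 fold change of -1.38 ± 0.34 for 14 against 3 days (adjusted p = 0.0244). Stat3 averaged 209 ± 15, 151 ± 9 and 147 ± 7 CPM at the same times (14 against 3 days, -0.46 ± 0.12, adjusted p = 0.0294). Groups were separate for both genes between 3 and 14 days, but both calls were lost in 5 of the 6 fits that left out 1 library (all but the fit without 3 days replicate 2, with adjusted p of 0.0681 to 0.138 for Socs3 and 0.0676 to 0.146 for Stat3), and Socs3 also lost its call with a term for Xist (adjusted p = 0.0545).

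For 35 against 3 days 3 genes fell (11% of all genes called, 5.04% higher and 5.97% lower). Stat3 fell by 0.51 ± 0.11 on the log2 scale (adjusted p = 0.00369), Socs3 by 1.27 ± 0.31 (adjusted p = 0.00949) and Lif by 1.96 ± 0.56 (adjusted p = 0.0249). The ranges of Socs3 and Lif overlapped between the times. A fit on the compared groups only called none of the 3 (adjusted p = 0.0586 for Stat3, 0.0996 for Socs3 and 0.178 for Lif), and without injured control 3 days replicate 1 the calls of Socs3 and Lif were lost (0.0605 and 0.0768). Without the 2 libraries that held both Xist and Ddx3y, the log2 fold change was -0.51 for Stat3, -1.60 for Socs3 and -2.16 for Lif, and each was still called. Lif also lost its call without 3 days replicate 3 (0.137) and without 35 days replicate 2 (0.0544) or 3 (0.0531). Osmr did not pass the test, with a log2 difference of -0.36 and a 95% interval of -0.94 to 0.21. Between 14 and 35 days 0 of 9 genes were called by edgeR (1.32% of all genes), with 1 at an unadjusted p under 0.05 (Lifr, -0.50 ± 0.18) and 0 by DESeq2. Of all 16314 genes tested, 3828 had an unadjusted p under 0.05. That Lifr difference was called without injured control 35 days replicate 2 or 3 (adjusted p = 0.0383 and 0.0319). Over the 7 fits that left out 1 library its edgeR adjusted p reached 0.376, and 0 to 2587 of all genes were called.

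Among the other gp130 family genes, Ctf1 (1.32 ± 0.42), Il11ra1 (0.67 ± 0.19) and Cntfr (0.52 ± 0.14) rose for 35 against 3 days. Of the kinases, STATs and regulators, Socs4 (-0.91 ± 0.28) and Jak3 (-0.83 ± 0.20) fell. Of the reported STAT3 targets, 9 fell and 0 rose for 14 against 3 days, among them Saa3 (-4.13 ± 1.14), Birc5 (-2.06 ± 0.47), Timp1 (-1.67 ± 0.47), Cebpd (-1.45 ± 0.37), Il4ra (-1.35 ± 0.31) and Plaur (-1.35 ± 0.36). For 35 against 3 days 8 fell and 0 rose, with Saa3 (-3.07 ± 0.94), Lrg1 (-2.72 ± 0.60), Birc5 (-1.98 ± 0.43), Timp1 (-1.42 ± 0.42), Il4ra (-1.01 ± 0.28) and Ccnd1 (-0.97 ± 0.25) the most. Gfap, the astrocyte filament protein, did not pass the test (0.06). Of all genes tested, 2.42% fell for 14 against 3 days and 5.97% for 35 against 3 days.

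In sham cords 0 of 9 genes were called by edgeR for 35 against 3 days (0.00613% of all genes) and 0 by DESeq2. At an unadjusted p under 0.05 there were 3 of the 9, and 1171 of all 16314 genes tested. Osmr had 5.63, 3.90 and 3.53 CPM in sham cords at 35 days against 9.02, 6.35 and 9.50 CPM at 3 days (log2 fold change -0.93 ± 0.35, adjusted p = 0.586). Socs3 (-0.999 ± 0.460) and Lif (-1.63 ± 0.76) were the others. A fit on the sham groups alone called 2 of the 9, Osmr among them (adjusted p = 0.0495). The change of the injury effect between 3 and 35 days was tested as an interaction, and 0 of 9 genes were called by edgeR or by DESeq2 (0.362% of all genes), with 1 at an unadjusted p under 0.05 (Stat3, -0.37 ± 0.16, adjusted p = 0.457). Of all 16314 genes, 1563 had an unadjusted p under 0.05 for the interaction.

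The Gsx1 comparisons ask whether the factor changed these genes in injured cord. Against injured control cords, edgeR called 0 of 9 genes and 0% of all genes at 3, 14 and 35 days, and DESeq2 called 0 of the 9 at each time. At an unadjusted p under 0.05 there were 0 genes at 3 days, 0 at 14 days and 4 at 35 days. Over all 16314 genes tested the counts were 338, 960 and 3077. At 35 days Socs3 had 9.40, 9.40, 11.7 and 10.0 CPM in Gsx1 cords against 13.1, 11.5, 15.1 and 26.1 CPM in injured control cords, with 1 Gsx1 library just above the lowest control library (log2 fold change -0.70 ± 0.30, 95% interval -1.31 to -0.08, adjusted p = 0.232). Osmr had 27.3, 28.2, 25.6 and 25.3 CPM in Gsx1 cords against 42.5, 31.0, 34.9 and 54.7 CPM in injured control cords, and here the groups did not overlap (-0.61 ± 0.26, 95% interval -1.16 to -0.07, adjusted p = 0.231). Lifr (0.36 ± 0.17, adjusted p = 0.251) and Jak2 (0.20 ± 0.09, adjusted p = 0.259) lay on the other side. Injured control replicate 4, 1 of the 2 libraries that held both Xist and Ddx3y, had the highest Socs3 and Osmr of its group. Without those 2 libraries the log2 fold change was -0.38 for Socs3 (adjusted p = 0.749) and -0.44 for Osmr (adjusted p = 0.720). Macrophage and microglia markers had sums of 507 to 630 CPM in Gsx1 cords and 847 to 1784 CPM in injured control cords at 35 days, and their part in these values was not tested.

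At 3 days Socs3 averaged 34.9 ± 11.6 CPM in Gsx1 cords and 39.8 ± 16.8 CPM in injured control cords (SD, n = 3 each), with a 95% interval of the log2 difference of -0.86 to 0.49. Stat3 averaged 195 ± 29 CPM in Gsx1 cords and 209 ± 15 CPM in injured control cords (interval -0.34 to 0.14). Lifr was the gene whose groups were separate, at 93.7 to 96.8 CPM in Gsx1 cords and 102 to 109 CPM in injured control cords. At 14 days the groups were separate for Il6st, Lif and Osmr, each lower in Gsx1 cords, with log2 fold changes of -0.16, -0.50 and -0.27. None of the 9 genes had an unadjusted p under 0.05 at 3 or 14 days in edgeR. With 3 libraries a side groups can separate by chance, and the share over all genes is not given here. Osm was higher, with 1.55, 2.35 and 1.13 CPM in Gsx1 cords against 1.20, 0.600 and 0.481 CPM in injured control cords (1.16 ± 0.71, 95% interval -0.29 to 2.61). On the counts themselves, 83 reads in Gsx1 and 30 in injured control libraries, the ratio was 2.35 with a counting interval of 1.53 to 3.69. That interval covers counting error only and leaves out the spread between libraries. The groups overlapped for Osm, and the edgeR interval held 0. Fibroblast markers had sums of 435 to 678 CPM in Gsx1 cords and 1867 to 2252 CPM in injured control cords at 14 days, and macrophage and microglia markers 462 to 882 CPM and 779 to 1319 CPM. Their part in these values was not tested.

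Nkx6.1 cords at 3 days had the highest mean of the 10 groups for Stat3, Socs3, Jak2, Il6ra, Lif, Osm and Osmr, though each overlapped the next group in order. Against injured control cords 0 of 9 genes were called by edgeR (0.337% of all genes) and 0 by DESeq2. At an unadjusted p under 0.05 there were 2 of the 9, and 2984 of all 16314 genes tested. Il6ra had 33.7, 37.3 and 24.8 CPM in Nkx6.1 cords against 21.9, 15.6 and 21.6 CPM in injured control cords, groups that did not overlap (log2 fold change 0.70 ± 0.23, adjusted p = 0.126). Over the 6 fits that left out 1 library, the Il6ra log2 fold change was 0.553 to 0.850, with edgeR adjusted p up to 0.500. Without Nkx6.1 replicate 3 Il6ra was called (0.85, adjusted p = 0.0198). Those 6 fits called 0 to 2571 of all genes, and the number without replicate 3 is not given here. Socs3 had 72.0, 81.1 and 41.1 CPM in Nkx6.1 cords against 51.0, 20.5 and 47.9 CPM in injured control cords (0.70 ± 0.33, adjusted p = 0.261). Macrophage and microglia markers summed to 2417 to 3647 CPM in these Nkx6.1 cords and 747 to 1587 CPM in injured control cords, and replicate 3 had the lowest sum and the most neuron transcripts of the Nkx6.1 cords. Skeletal muscle markers reached 406 CPM in Nkx6.1 replicate 2 and 227 CPM in injured control replicate 3. The part of either in the values was not tested.

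At 35 days 0 of 9 genes were called in Nkx6.1 against injured control cords by edgeR (0% of all genes) and 0 by DESeq2. At an unadjusted p under 0.05 there were 3 of the 9, and 2006 of all 16314 genes tested. Osmr had 21.4, 15.1 and 41.1 CPM in Nkx6.1 cords against 42.5, 31.0, 34.9 and 54.7 CPM in injured control cords (-0.65 ± 0.29, adjusted p = 0.388). Il6st (-0.44 ± 0.20, adjusted p = 0.394) and Lifr (0.38 ± 0.18, adjusted p = 0.403) were the others. Without the 2 libraries that held both Xist and Ddx3y the log2 fold change was -0.47 for Osmr, -0.43 for Il6st and 0.28 for Lifr (adjusted p = 0.953 for each). In Nkx6.1 replicate 3, Osmr, Socs3, Il6ra, Lif and Osm were each higher than in the other 2 libraries of that group, as were its macrophage markers (932 CPM, against 456 and 281 CPM in the others). The part of these markers in the values was not tested. In the 5 comparisons of a factor with injured control cords, edgeR called 0 genes of each of the 3 pathway lists. At an unadjusted p under 0.05 there were 1, 6 and 7 genes of the gp130 family, the kinases, STATs and regulators, and the reported STAT3 targets in Nkx6.1 cords at 3 days, with lowest adjusted p of 0.271, 0.157 and 0.0699. In the same comparison 2984 of all 16314 genes tested had an unadjusted p under 0.05, so these counts are given as descriptions.

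**Figure D5:**
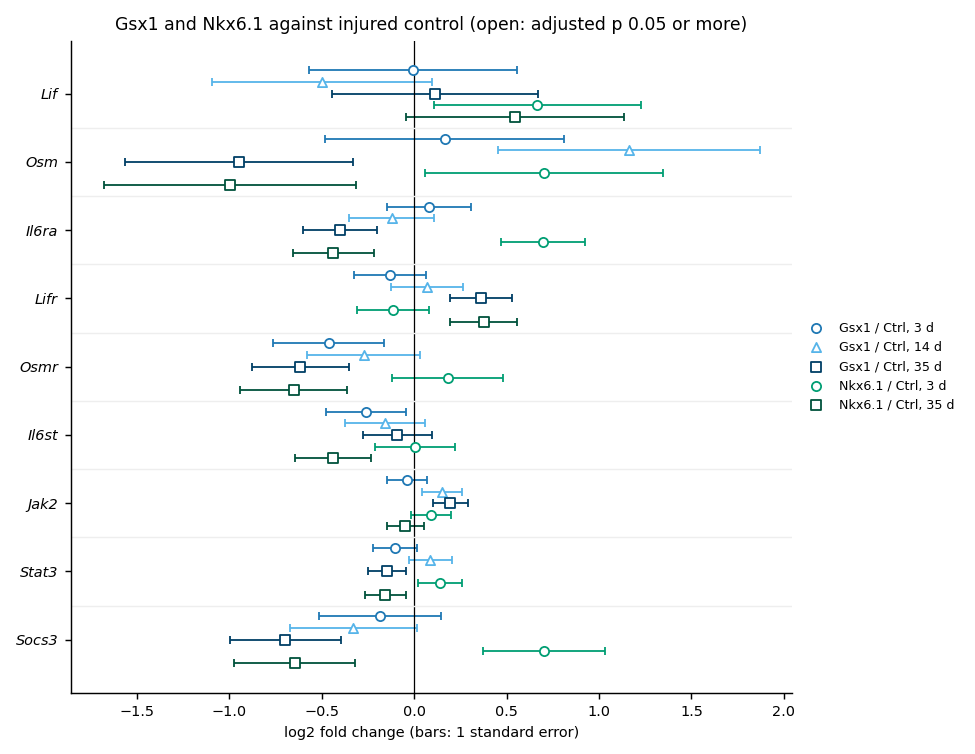
Log2 fold change (bars, 1 standard error) of the 9 genes tested in Gsx1 cords at 3, 14 and 35 days and in Nkx6.1 cords at 3 and 35 days against injured control cords of the same day. All symbols are open because no adjusted p was under 0.05, and the bars of Osm and Lif are the widest.

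Set against sham, Socs3, Osmr, Il6ra and Stat3 rose in cords with either factor at 3 days. These comparisons share their sham libraries with those of injured control cords, so they are given side by side only. Osm and Lif passed the filter on low counts through their injured libraries. Their calls are no support for the counts of genes that rose against sham. In Gsx1 cords 6 of 9 genes rose at 3 days (37.7% of all genes called, 20.3% higher and 17.4% lower), with Socs3 at 3.59 ± 0.39, Osmr at 2.19 ± 0.33, Il6ra at 1.64 ± 0.24 and Stat3 at 0.76 ± 0.12 on the log2 scale. The rise of Lif in Gsx1 cords (1.96 ± 0.61, adjusted p = 0.0140) was lost without sham replicate 2 (adjusted p = 0.0651) and without Gsx1 replicate 1 (0.0991). In Nkx6.1 cords 8 of 9 rose, all but Lifr (54.3% of all genes called, 27.9% higher), with Socs3 at 4.48 ± 0.40, Osmr at 2.84 ± 0.33, Il6ra at 2.26 ± 0.24 and Stat3 at 1.00 ± 0.12. The rise of Jak2 in Nkx6.1 cords (0.35 ± 0.11, adjusted p = 0.00823) was lost without Nkx6.1 replicate 1 (adjusted p = 0.0892) and with the compared groups only (0.0584). The rise of Il6st in Nkx6.1 cords (0.54 ± 0.22, adjusted p = 0.0374) was lost in 5 of the 6 fits that left out 1 library, with adjusted p of 0.0555 to 0.260, and with a replicate block (0.0519), a term for Xist (0.0667) or the compared groups only (0.101). Osm was counted on 1 read in sham, and its ratio was 102 in Gsx1 cords (counting interval 18.0 to 4064) and 143 in Nkx6.1 cords (25.3 to 5691).

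At 35 days 6 of 9 genes rose in Gsx1 cords against sham (9.8% of all genes called, 8.63% higher and 1.17% lower) and 3 of 9 in Nkx6.1 cords (7.2% called, 6.37% higher and 0.821% lower). Socs3, Osmr and Il6ra rose in both. The call of Osm in Gsx1 cords is again no support for the count. Socs3 had a log2 fold change of 2.81 ± 0.41 in Gsx1 cords and 2.86 ± 0.43 in Nkx6.1 cords, and Osmr had 2.61 ± 0.34 and 2.57 ± 0.35. The other rises in Gsx1 cords, of Stat3 (0.35 ± 0.11, adjusted p = 0.0450), Il6st (0.68 ± 0.21, adjusted p = 0.0354) and Osm (adjusted p = 0.0351), were each lost in 6 of the 7 fits that left out 1 library and in the fit with a replicate block (adjusted p = 0.0896 for Stat3, 0.0832 for Il6st and 0.0690 for Osm). In Nkx6.1 cords Osm missed the threshold (adjusted p = 0.0583) and passed it without replicate 1 (0.0361) or 2 (0.0440), with DESeq2 (0.0411), with a replicate block (0.0481) and with a term for Xist (0.0432). Lif missed it as well (0.0740) and passed with DESeq2 (0.0354) and without replicate 1 (0.0494) or 2 (0.0304).

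The pathway lists were also set against the same sham libraries. Ebi3, Stat4 and Saa3 are among their genes that passed the filter on low counts through injured libraries. Calls of such genes are no support for the counts of these lists. Of all genes tested at 3 days, 20.3% rose and 17.4% fell in Gsx1 cords, and 27.9% rose and 26.4% fell in Nkx6.1 cords. At 35 days 8.63% rose in Gsx1 cords and 6.37% in Nkx6.1 cords. Of the 8 other gp130 family genes 4 rose in Gsx1 cords at 3 days, among them Clcf1 (2.86 ± 0.43), Ebi3 (2.16 ± 0.49) and Il11ra1 (0.57 ± 0.21). In Nkx6.1 cords at 3 days 4 rose, among them Clcf1 (3.29 ± 0.43), Il11 (1.73 ± 0.61) and Ebi3 (1.62 ± 0.49), and Cntfr fell (-0.41 ± 0.15). At 35 days 2 rose in Gsx1 cords, Ebi3 (1.67 ± 0.47) and Clcf1 (1.36 ± 0.41), and 1 in Nkx6.1 cords, Clcf1 (1.58 ± 0.43).

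The counts that follow stand beside shares of all genes that rose against sham. In Gsx1 cords these were 20.3% at 3 days and 8.63% at 35 days. In Nkx6.1 cords they were 27.9% and 6.37%. Of the 21 kinases, STATs and regulators 11 rose and 1 fell in Gsx1 cords at 3 days, and 13 rose and 2 fell in Nkx6.1 cords. Ptpn6 had the largest log2 fold change in each, at 3.53 ± 0.37 in Gsx1 cords and 4.07 ± 0.38 in Nkx6.1 cords, and Socs1 rose by 2.45 ± 0.57 and 2.50 ± 0.57. At 35 days 5 rose in Gsx1 cords and 4 in Nkx6.1 cords, with Ptpn6, Stat6, Jak3 and Socs6 in both. Of the 27 reported STAT3 targets 23 rose and 1 fell in Gsx1 cords at 3 days, 26 rose and 1 fell in Nkx6.1 cords at 3 days, 15 rose in Gsx1 cords at 35 days and 16 rose in Nkx6.1 cords at 35 days. Timp1 rose by 4.92 ± 0.58 in Gsx1 cords and 5.45 ± 0.59 in Nkx6.1 cords at 3 days, and by 3.87 ± 0.63 and 3.98 ± 0.65 at 35 days. Saa3, on 12 reads in sham, had a ratio of 51.8 in Gsx1 cords (counting interval 29.5 to 100.7) and 432 in Nkx6.1 cords (247 to 837) at 3 days.

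Among the 26 injured libraries, with sham left out, the genes of the set were compared within each time. Pearson's r of log2 CPM between Socs3 and Lif was 0.945 over the 9 libraries at 3 days and 0.393 over the 11 libraries at 35 days. Between Socs3 and Osmr it was 0.808 at 3 days and 0.894 at 35 days, and between Socs3 and Stat3 0.878 and 0.535. Over the 6 libraries at 14 days the same 3 values were 0.719, 0.344 and -0.229. Between Socs3 and Osm r was 0.874 at 3 days, -0.950 at 14 days and 0.615 at 35 days. Socs3 and Lifr had -0.546, -0.480 and -0.515 at these times. The libraries share their groups and their cell composition, and these values are descriptions.

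The genes outside the set with the most similar pattern to Socs3, among 13856 genes compared over the 26 injured libraries, were Actn4, an actin cross-linker (r = 0.972), P4hb, a protein disulfide isomerase (r = 0.972), and Sbno2, one of the listed STAT3 targets (r = 0.971). Within times r lay between 0.947 and 0.956 at 3 days and between 0.920 and 0.957 at 35 days, and between 0.173 and 0.335 over the 6 libraries at 14 days. For Osmr they were Ikbke, an innate immune kinase (r = 0.943), Ggta1, a galactosyltransferase (r = 0.917), and Pros1, the anticoagulant protein S (r = 0.913). For Stat3 they were Myh9, nonmuscle myosin (r = 0.953), Top2a, the topoisomerase of dividing cells (r = 0.948), and F13a1, coagulation factor XIII A (r = 0.948). For Lif they were Itpripl1 (r = 0.903), Bin3 (r = 0.878) and Midn (r = 0.870). With the 2 libraries farthest from the median left out, these 12 values lay between 0.831 and 0.962. The 26 libraries mix 3 times and 3 treatments. At 3, 14 and 35 days, r of the Osmr genes was 0.865 to 0.924, 0.668 to 0.867 and 0.947 to 0.977. For the Stat3 genes r was 0.813 to 0.900, 0.513 to 0.756 and 0.719 to 0.760 at these times. For the Lif genes r was 0.792 to 0.917, -0.438 to 0.429 and 0.516 to 0.755.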

How the data were processed

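RNA of mouse spinal cord was sequenced as paired ends in 32 libraries of 10 groups. The authors deposited raw counts of reads per gene symbol, without normalization. Per the submitters' processing notes, the tools were HISAT2, SAMtools, HTSeq and DESeq2 (no versions) and the builds mm10 and GRCm38. Annotation, strand setting and the treatment of reads with several matches: not given in the sources used here. Reads of overlapping genes may therefore be shared. The table had 0 columns without a sample.

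Counts were tested with edgeR 4.0.16 (R 4.3.3) by quasi-likelihood F tests with TMM scaling, after its expression filter (minimum count 10, minimum total count 15), in 1 model of all 10 groups without covariates (22 residual degrees of freedom, common biological coefficient of variation 20.8%). DESeq2 1.42.0 was an alternative. Standard errors are the log2 fold change divided by the root of F, and 95% intervals use the t quantile of the total degrees of freedom. P-values were adjusted by Benjamini-Hochberg over 16314 genes. The procedure was tested on simulated data. Log2 CPM of 36 within-group library pairs correlated at 0.942 to 0.988 (Pearson's r), each pair differing beyond counting noise (chi-square per degree of freedom at least 3.74). Library totals were 10.8 to 19.5 M counts. Counting intervals are exact at 95% and cover counting error only.

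Alternatives were RLE and upper quartile scaling, no expression filter, DESeq2, the compared groups only, a replicate block, a term for Xist, leaving out the 2 libraries with both Xist and Ddx3y, and leaving out each library in turn. The 10 genes were named in every comparison. Up to 6 called genes of each pathway list with the largest change were named in the injury comparisons and where a gene of the set was called, and the 3 genes most correlated with Socs3, Osmr, Stat3 and Lif (mean of at least 1 CPM). Some genes of these lists are counted but not reported here by name. The genes and all lists were chosen with earlier results of these data known. Exon lengths and coordinates are from GENCODE M21 (GRCm38), and the promoter sequence is from RefSeq (GRCm38.p6).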

Additional observations from a re-analysis of the deposited data

Results flagged for a closer look

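In a group of 4 libraries, 1 value stood apart from the rest by the gap to its nearest neighbour. Il6 had 0.0675 CPM in injured control 35 days replicate 2, against 0 CPM in the other 3 libraries of that group. The value rests on 1 read. Of the groups of 4 libraries, 20 sets of values were looked at, and chance marks about 1 in 20 where values are continuous. A lone read beside libraries at 0 is always marked, so that rate does not describe the Il6 value.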

How the results depend on the processing

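The number of genes of the set called was the same, within 1.5 times, under every alternative for most comparisons. It was 3 for Gsx1 cords against sham at 35 days with a replicate block, 5 for Nkx6.1 cords against sham at 35 days with DESeq2, 4 for injured control 14 against 3 days on the compared groups only and 1 with a term for Xist, 0 for injured control 35 against 3 days on the compared groups only, and 2 for sham 35 against 3 days on the compared groups only. With each library left out in turn, the counts were 5 to 7 for injured control against sham at 3 days and 6 to 8 at 35 days, 0 for Gsx1 against injured control at each time, 0 to 1 (3 days) and 0 (35 days) for Nkx6.1 against the injured controls, 5 to 6 and 3 to 5 for Gsx1 against sham, 6 to 9 and 3 to 5 for Nkx6.1 against sham, and 0 to 2, 0 to 1 and 1 to 3 for injured control 14 against 3, 35 against 14 and 35 against 3 days. They stayed at 0 for sham and for the interaction. The log2 fold change of Jak2 at 35 days changed sign, to 0.0073 with upper quartile scaling, 0.0017 without sham replicate 3 and 0.043 without injured control replicate 1 (lowest with 1 library left out, -0.087). Of the recomputed values of single genes (all in the injury comparisons, elsewhere those with an unadjusted p under 0.05), 896 kept direction and call, 60 lost the call and 28 gained one.

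The replicate numbers do not pair the libraries. Deviations from group means correlated at -0.0023 on average over 136 pairs of libraries with the same number and at 0.001 over 324 pairs with other numbers, and the replicate block ended the 3 calls named for Gsx1 against sham at 35 days and that of Il6st for Nkx6.1 against sham at 3 days (adjusted p = 0.0519). Counts over all genes moved more. On the compared groups only they were 2195 for injury at 35 days (6009 in the model of all groups), 457 for injured control 35 against 3 days (1797), 1790 for 14 against 3 days (500), 633 for sham (1) and 3297 for Gsx1 against sham at 35 days (1599). DESeq2 called 456 for Nkx6.1 against injured control at 3 days (55), 33 for Gsx1 at 14 days (0) and 957 for injured control 35 against 14 days (216). Without the 2 libraries that held both Xist and Ddx3y, injury at 35 days had 3178. With 1 library left out, Gsx1 against injured control at 35 days ranged between 0 and 1872, and Nkx6.1 at 3 days between 0 and 2571. The cause was not tested. The recomputed counts of the pathway lists were chosen after seeing the data. Il6 and sham Osm are limited by depth.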
